A study of Mus musculus with 34 samples.

Results

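The kinesins examined here are the 37 mouse genes whose symbol on the array platform is Kif followed by a digit, out of 18194 genes that a probe set of the array names alone. Each gene was read by 1 probe set, the one with the highest mean over all 34 arrays, and 28 of the 37 genes passed a filter that asked for a log2 signal of at least 4 in at least 4 arrays. By their known role, 12 genes belong to the mitotic spindle and cytokinesis (8 passed the filter), 11 to transport along axons and dendrites (10 passed), 4 to vesicle and endosome transport in many cell types (4 passed), 5 to cilia and Hedgehog signalling (3 passed) and 5 to other roles (3 passed).

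The arrays measured total RNA of thoracic spinal cord from C57BL/6J mice (backcrossed for more than 20 generations, aged 8 to 12 weeks) that were wild type (WT) or knockout (KO) for trkB.T1, the truncated receptor form made from the Ntrk2 gene. Mice were labelled sham or were taken at day 1, 3 or 7 after a moderate contusion of the cord, which gave 8 groups. Among WT mice 5 arrays came from day 1 and 4 from each of sham, day 3 and day 7, and among KO mice 5 came from day 3 and 4 from each of the other groups. The design asks how gene expression changed after injury and whether the knockout altered that course. All groups shared strain, tissue and array type, and the description codes of the sham arrays begin with Nav, so "sham" stands here for the labelled control group. The labels call the arrays biological replicates without saying more of the animals, and nothing was found on the promoter, breeding or cell type of the knockout in the sources used here.

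Kinesins are motor proteins that use ATP to move along microtubules or to take them apart. Spindle kinesins are made mainly in dividing cells, where they push spindle poles apart, move and align chromosomes and build the midzone that guides cytokinesis. Transport kinesins carry vesicles, mitochondria, cytoskeletal proteins and RNA from the neuronal cell body into axons and dendrites, so adult spinal cord is rich in them and poor in the mitotic members.

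The signals were deposited as log2 values from 2.17 to 15.9, and 33.7% of them lay within 0.1 of the lowest value. A group mean under 3 is called near the floor below, and a difference from such a group is a lower bound. The number of arrays in a group limits the precision of every value. For day 1 WT replicates 1 and 2 the source field names another group (day 7 and sham) than the title, and the titles were followed. The Ntrk2 probe set read 10.01 to 10.85 in the 17 WT arrays and 3.12 to 4.94 in 16 of the 17 KO arrays, but 9.46 in the array labelled sham KO replicate 2. Results that change without these 3 arrays are given with that value.

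Several spindle kinesin genes carry in their promoters the 2 elements known from cell cycle genes, the CHR (TTTGAA or TTCGAA) and the CCAAT box, searched on both strands in the 250 bases before the RefSeq start (build GRCm38.p6). The RefSeq promoter table held 31 of the 37 genes, 11 of them spindle and 8 transport genes. A CHR was found in 5 of the 11 spindle and 1 of the 8 transport promoters, against 19.6% of all 27025 genes in the table. CCAAT was found in 7 of 11 and 3 of 8, against 37.5%, and both elements in 3 and 0, against 7.93%. The pair was not particular to spindle genes, since Kif24, Kif26b and Kif27, of cilia or other roles, also held both. Over all 31 Kif promoters a CHR was found in 9, CCAAT in 14 and both in 6. No CHR and CCAAT match overlapped in the stretches shown here, and a match describes the sequence alone.

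The last 150 bases before the start are shown 5′ to 3′ for 4 spindle genes that hold both, 1 or neither of the elements and for Kif5c, a neuronal transport kinesin, as a contrast. Capitals mark a motif, and ATTGG and TTCAAA are CCAAT and TTTGAA read on the opposite strand. Kif11 (chr19:37376232-37376381, plus strand) and Kif22 (chr7:127042421-127042570, minus strand) hold both elements, with the CHR starting 19 and 17 bases and the CCAAT box 45 and 54 bases before the start. Kif23 (chr9:61946800-61946949, minus strand) holds a CCAAT box 7 bases before the start, while Kif20b (chr19:34922208-34922357, plus strand) and Kif5c (chr2:49619136-49619285, plus strand) hold neither in the stretch shown.
Kif11: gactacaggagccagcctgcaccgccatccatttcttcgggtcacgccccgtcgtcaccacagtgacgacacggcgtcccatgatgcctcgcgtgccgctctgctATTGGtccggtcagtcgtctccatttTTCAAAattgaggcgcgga
Kif22: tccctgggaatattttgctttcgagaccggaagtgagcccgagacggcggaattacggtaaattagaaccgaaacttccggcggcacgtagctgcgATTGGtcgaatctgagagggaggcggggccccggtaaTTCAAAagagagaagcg
Kif23: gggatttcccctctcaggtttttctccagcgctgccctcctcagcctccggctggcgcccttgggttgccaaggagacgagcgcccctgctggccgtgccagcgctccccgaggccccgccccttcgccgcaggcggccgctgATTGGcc
Kif20b: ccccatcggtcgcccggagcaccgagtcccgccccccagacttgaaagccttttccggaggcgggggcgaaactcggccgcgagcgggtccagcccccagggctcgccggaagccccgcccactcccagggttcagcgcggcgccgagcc
Kif5c: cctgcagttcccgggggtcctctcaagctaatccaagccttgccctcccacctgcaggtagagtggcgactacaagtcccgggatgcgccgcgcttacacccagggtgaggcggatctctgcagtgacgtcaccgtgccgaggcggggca

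After injury the spindle kinesins rose and most transport kinesins fell. All 8 spindle kinesins that passed the filter were higher at day 3 than in sham in WT and in KO, by 1.50 to 4.71 log2 units in WT and 1.60 to 5.03 in KO. That count describes the genes that passed and is no support for a rise of the group, since signal in the injured arrays let most of them pass: 5 of the 12 spindle genes reached the filter in the arrays of sham, day 1 and day 7 (Kif4, Kif18a and Kif20a did not) and 2, Kif11 and Kif22, in the sham arrays alone. The same 10 transport kinesins reached it in the sham arrays alone. Of all 11990 genes tested with 1 probe set each, 29.0% were called higher at day 3 in WT and 30.7% in KO, and the median of all genes was -0.06 in both. A gene is called where limma's adjusted p is under 0.05 after Benjamini-Hochberg adjustment over all 24573 probe sets tested. Of the 10 transport kinesins, 9 were lower at day 3 in each genotype, with medians of -0.69 in WT and -0.83 in KO, where 37.0% and 38.4% of all genes were called lower. Injury groups of 1 genotype share their sham arrays, so these comparisons are not independent of each other. In whole tissue, fewer cells of a type and less RNA per cell cannot be told apart.

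**Figure D1:**
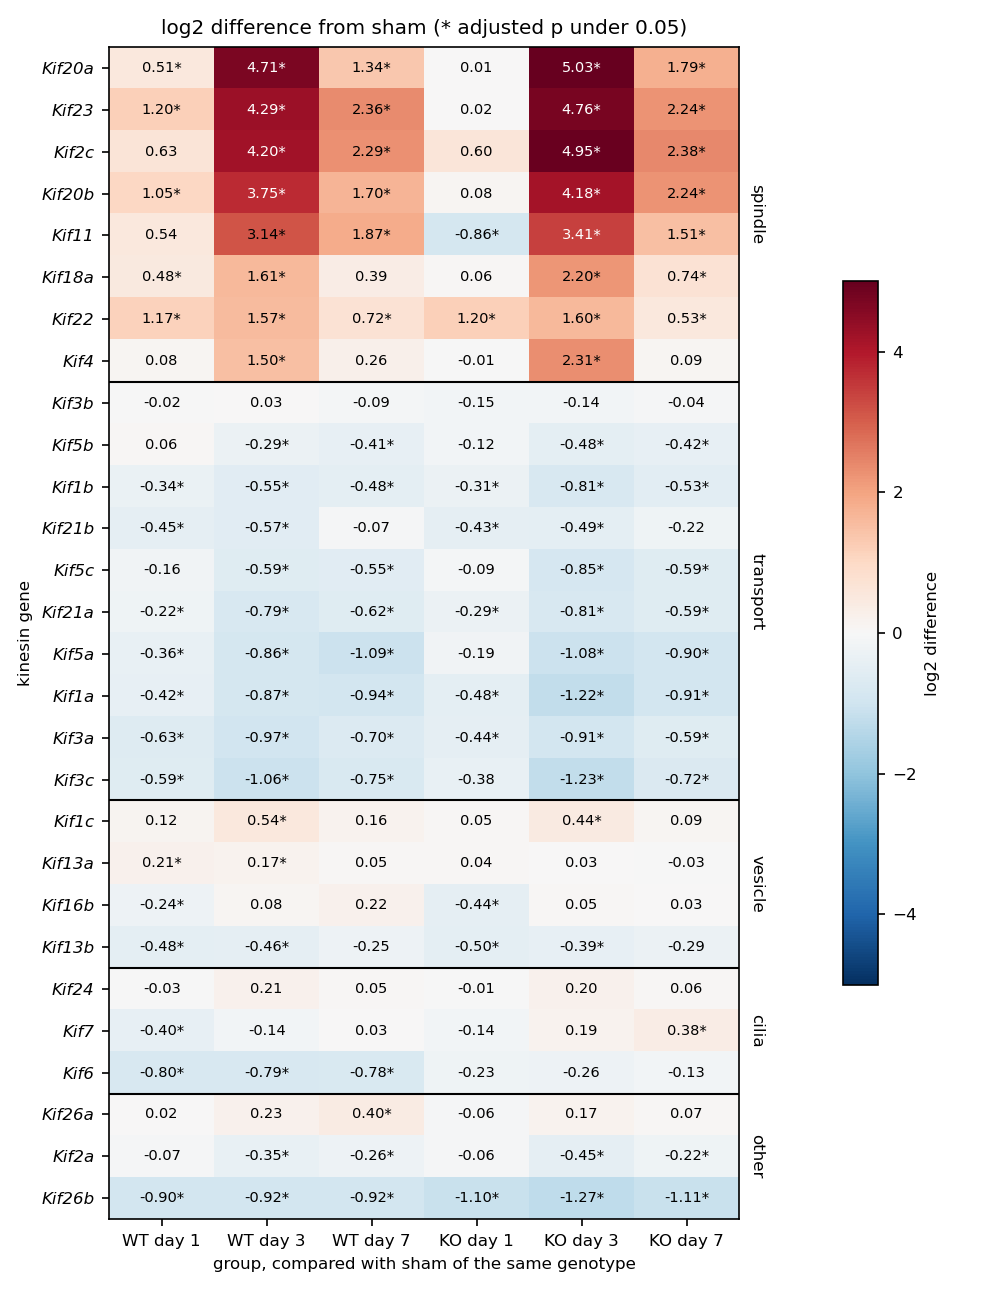
Log2 difference from sham of the same genotype for the 28 kinesin genes that passed the filter, in rows grouped by role, with 1 column for each of 3 days and 2 genotypes. Red cells are higher and blue cells lower than sham, and an asterisk marks an adjusted p under 0.05 in limma. The 8 spindle kinesins that passed were called higher at day 3 in both genotypes, up to 5.03 log2 units, while 9 of the 10 transport kinesins were called lower, down to -1.23.

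Kif20a, a midzone motor needed for cytokinesis, rose at day 3 from near the floor. It read 2.34, 2.32, 2.34 and 2.46 in the sham WT arrays and 7.58, 6.72, 6.75 and 7.24 at day 3. In KO it read 2.33, 2.33, 2.40 and 2.49 in sham and 7.15, 6.90, 7.51, 8.15 and 7.35 at day 3. Every day 3 array stood above every sham array, and because sham was near the floor the differences of 4.71 in WT (SE 0.23, adjusted p 3.58e-16 in limma) and 5.03 in KO (SE 0.22, adjusted p 1.37e-17) are lower bounds. Its day 7 arrays read 3.86, 3.34, 3.36 and 4.27 in WT and 4.42, 4.28, 4.00 and 4.00 in KO, all between the sham and the day 3 ranges.

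Kif23, the motor of the centralspindlin complex that organises the midzone, was near the floor in sham, at 2.19, 2.22, 2.17 and 2.29 in WT and 2.21, 2.22, 2.22 and 2.43 in KO. Its day 3 WT arrays read 6.67, 6.21, 6.90 and 6.26. Its day 3 KO arrays read 6.69, 6.83, 7.39, 7.49 and 6.78. The day 3 and sham arrays did not overlap, and the rise was at least 4.29 log2 units in WT (SE 0.25, adjusted p 2.02e-14 in limma) and at least 4.76 in KO (SE 0.24, adjusted p 3.55e-16). At day 7 it was 5.21, 4.16, 3.82 and 5.13 in WT and 4.77, 4.38, 4.70 and 4.22 in KO, above every sham array in both.

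Kif2c, which takes apart microtubule ends to correct faulty chromosome attachments, read 3.48, 3.10, 2.50 and 2.96 in sham WT and 7.33, 6.45, 7.68 and 7.36 at day 3. The KO arrays read 2.49, 2.49, 3.61 and 2.49 in sham and 7.70, 7.41, 7.96, 8.12 and 7.39 at day 3. All day 3 arrays again stood above all sham arrays, by 4.20 on average in WT (SE 0.30, adjusted p 1.66e-12 in limma) and by at least 4.95 in KO (SE 0.28, adjusted p 8.71e-15). Its day 7 arrays, at 5.74, 4.95, 4.99 and 5.54 in WT and 5.54, 5.73, 4.87 and 4.48 in KO, lay between. At day 1 it read 3.99, 3.58, 3.18, 3.65 and 3.79 in WT, with KO arrays at 3.36, 3.91, 3.25 and 2.95, overlapping with sham, and was not called (0.63 and 0.60). The probe set read for Kif2c carries the suffix x, which marks probes able to match more than 1 transcript. It was the only 1 of 4 Kif2c probe sets that passed the filter.

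Kif11, the motor that slides spindle poles apart, was above the floor in sham in both genotypes, at 4.26, 3.98, 4.46 and 4.33 in WT and 4.33, 4.26, 5.41 and 4.33 in KO. Day 3 raised it to 8.12, 6.16, 7.68 and 7.64 in WT and 7.87, 7.45, 8.38, 8.39 and 7.86 in KO. The day 3 arrays lay above all sham arrays in both genotypes, with differences of 3.14 (SE 0.35, adjusted p 1.98e-08 in limma) and 3.41 (SE 0.34, adjusted p 1.06e-09). At day 7 it read 6.56, 5.44, 5.69 and 6.82 in WT and 6.26, 6.17, 5.95 and 5.98 in KO, still above every sham array. Day 3 WT replicate 2 was the lowest day 3 WT array for Kif11, Kif23, Kif20b, Kif18a, Kif20a and Kif2c alike. Its macrophage marker mean was also the lowest of its group, 9.61 against 10.36 to 10.58. So were its astrocyte marker mean, 11.80 against 12.47 to 12.65, and its neuron marker mean, 11.31 against 11.50 to 11.72. Its endothelial marker mean was the highest, 8.45 against 7.36 to 7.83, and the part of these cells was not tested.

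Kif20b, a midzone motor, rose by at least 3.75 in WT and at least 4.18 in KO at day 3. Its arrays read 2.68, 2.85, 2.63 and 2.90 in sham WT and 6.87, 6.08, 6.72 and 6.37 at day 3 WT. The KO arrays read 2.62, 2.66, 2.96 and 2.66 in sham and 6.85, 6.67, 6.89, 7.35 and 6.77 at day 3. At day 7 it had come down to 4.54, 4.28, 3.81 and 5.22 in WT and 5.42, 4.65, 4.77 and 5.05 in KO. Kif18a, which dampens chromosome movement at metaphase, rose less, by 1.61 in WT (SE 0.19, adjusted p 6.71e-08 in limma) and at least 2.20 in KO (SE 0.18, adjusted p 3.6e-11). It read 3.18, 3.13, 2.95 and 2.75 in sham WT, 4.76, 3.78, 4.99 and 4.89 at day 3 WT, 2.68, 2.88, 2.94 and 2.62 in sham KO and 5.01, 4.52, 5.29, 5.15 and 4.92 at day 3 KO. For both genes the day 3 arrays did not overlap with sham in either genotype. Kif4, a chromosome arm motor, rose from 2.20 ± 0.03 to 3.71 ± 0.44 in WT (SD, n = 4 and 4) and from 2.20 ± 0.05 to 4.51 ± 0.66 in KO (SD, n = 4 and 5), at least 1.50 and 2.31 log2 units.

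Kif22, a chromokinesin that moves chromosome arms, was the spindle member with a different course. Its sham level was far from the floor, 8.53 ± 0.29 in WT and 8.57 ± 0.23 in KO (SD, n = 4 each), and it was already higher at day 1, by 1.17 in WT (SE 0.14) and 1.20 in KO (SE 0.15), with adjusted p of 8.25e-08 and 1.57e-07 in limma. At day 3 it stood 1.57 and 1.60 above sham. Its probe sets disagreed at day 1. The probe set without an x or s suffix, the letters that mark probes able to match more than 1 transcript, gave 0.03 in WT and -0.09 in KO at day 1, neither called, but 1.95 and 2.37 at day 3.

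**Figure D2:**
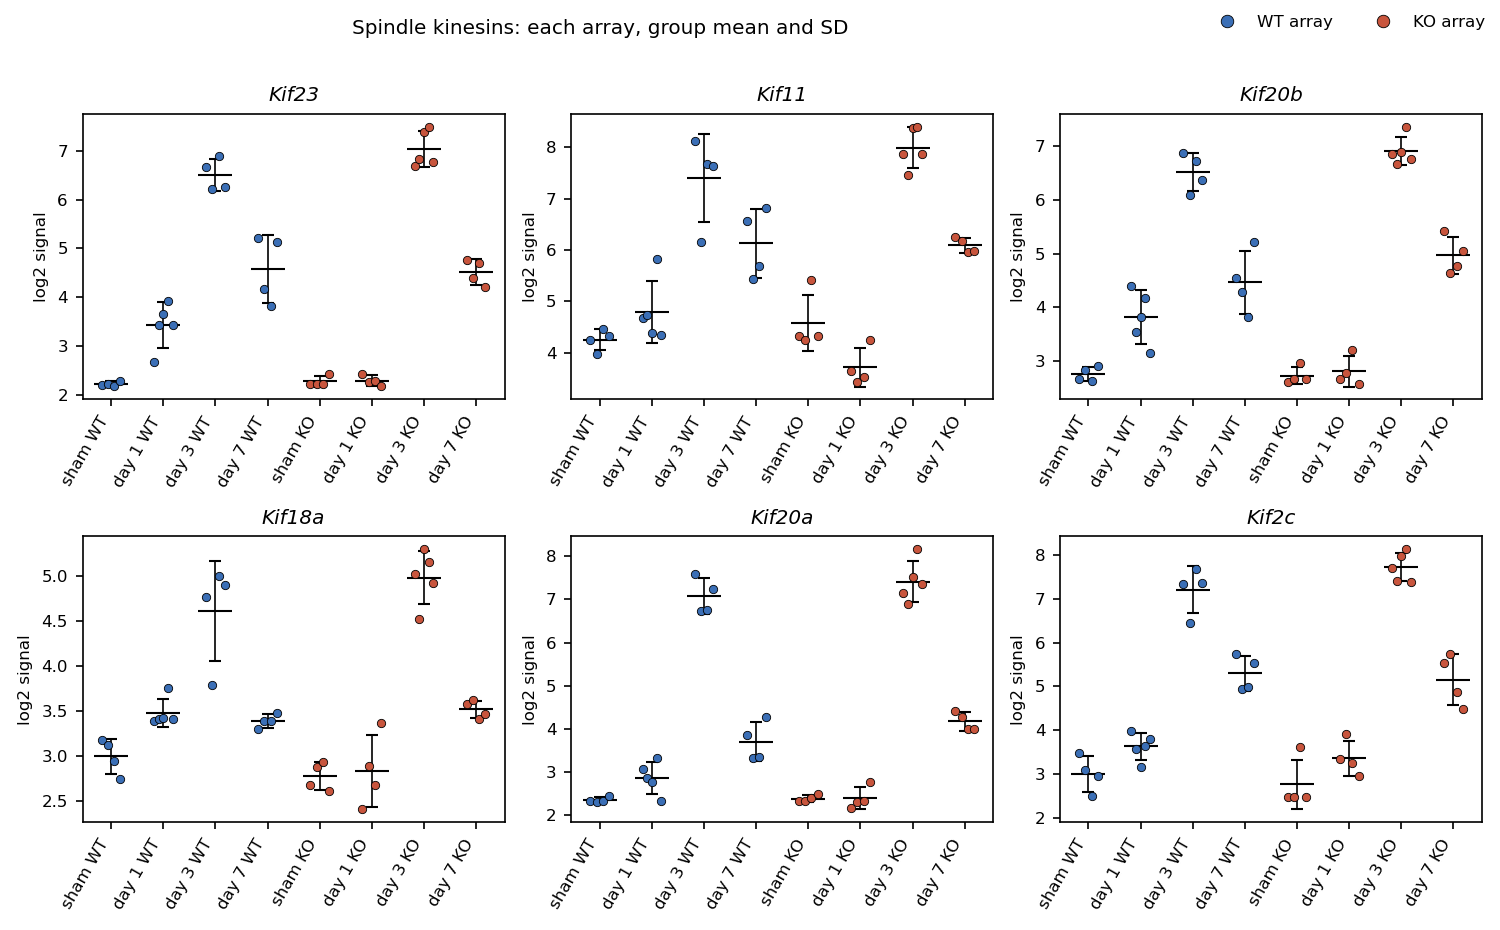
Log2 signal of 6 spindle kinesins in each array, by group (x axis), with WT arrays in blue and KO arrays in red, and with horizontal bars and whiskers for the group mean and SD. Day 3 is the highest group in each panel, and at day 1 the KO arrays of Kif23 lie between 2.17 and 2.43 while the WT arrays lie between 2.67 and 3.93.

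The time course showed when the spindle kinesins were highest. From day 1 to day 3 the 8 that passed were called higher in WT (14.7% of all genes) and in KO (22.8%), and from day 3 to day 7 they were called lower in WT (11.4% of all genes) and in KO (15.7%). As at day 3 against sham, these counts only describe them, because 3 of the 8 passed through the day 3 arrays. At day 7 they were still mostly above sham, with 6 of 8 called in WT (25.4% of all genes) and 7 of 8 in KO (22.9%). These day 7 counts too only describe the genes that passed. Of the 12 spindle genes, 2 reached the filter in the sham arrays alone. Kif4 was not called at day 7 in either genotype, at 0.26 in WT and 0.09 in KO, and Kif18a was called in KO (0.74, adjusted p 0.00255 in limma) but not in WT (0.39, adjusted p 0.0912). Kif18a read 3.30, 3.39, 3.39 and 3.48 at day 7 in WT and 3.57, 3.62, 3.41 and 3.47 in KO, above every sham array of its genotype. Its change from sham to day 7 differed between genotypes by 0.35, which was not called.

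Partners of these motors from a hand-written list followed the same days. Of 18 spindle and midzone partners tested, 17 were called higher at day 3 in WT (29.0% of all genes) and 17 in KO (30.7%), with medians of 3.52 and 3.91. The list was written with earlier results of these data known, so these counts only describe its genes. In sham, 5 of the 18 were near the floor in WT and 6 in KO. Prc1, the microtubule bundler of the midzone, rose by 4.63 in WT and 5.23 in KO, and Ect2, the exchange factor that starts the cleavage furrow, by 4.06 and 4.30. Anln was the partner that did not rise: it fell by 0.26 at day 3 in WT and read -0.16 in KO, which was not called. Among kinesins outside the naming rule, Cenpe, the kinetochore motor, rose by 3.75 and 4.31, and Kifc1, the minus-end motor of the spindle, by 2.52 and 3.00. Over the same days macrophage and microglia markers rose, with 8 of 8 tested genes higher at day 3 in both genotypes (medians 3.60 and 4.35). At day 7, where 25.4% and 22.9% of all genes were called higher, still 8 of 8 markers were higher (3.75 and 4.19). Their mean level was 6.69 to 6.92 in sham WT arrays, 9.61 to 10.58 at day 3 and 10.81 to 11.20 at day 7. In KO arrays it was 5.95 to 6.68 in sham, 10.43 to 11.14 at day 3 and 10.74 to 10.88 at day 7. All sham KO arrays lay below all sham WT arrays, and the part of these markers in the kinesin rise was not tested. Endothelial cell markers rose and came down again over these days. Of 6 tested, 6 were higher at day 3 in WT and 5 in KO (medians 2.01 and 1.20). From day 3 to day 7, where 11.4% and 15.7% of all genes were called lower, 6 and 5 of these markers were lower (medians -1.41 and -1.71). Their mean level was 5.57 to 5.80 in sham WT arrays and 7.36 to 8.45 at day 3, against 6.08 to 6.37 and 6.56 to 8.41 in KO, and their part in the spindle kinesin course was not tested.

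The 4 spindle members that failed the filter were Kif2b, Kif14, Kif15 and Kif18b. Kif2b and Kif14 averaged 2.17 in every group, the lowest value of the data, and Kif15 stayed between 2.43 and 2.60. Kif18b, a motor of astral microtubules, averaged 2.28 in sham WT and 2.27 in sham KO but 2.88 ± 0.41 (SD, n = 4) at day 3 in WT and 3.93 ± 0.83 (SD, n = 5) at day 3 in KO. It was not tested.

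Transport kinesins moved the other way and by less. Kif5a, Kif5b and Kif5c are the heavy chains of conventional kinesin, of which Kif5a and Kif5c are mainly neuronal and Kif5b is made in most cells. Kif5a read 13.21, 13.23, 13.21 and 13.29 in sham WT, 12.38, 12.38, 12.25 and 12.51 at day 3 and 11.99, 12.30, 11.99 and 12.30 at day 7. In KO it read 13.19, 13.28, 13.22 and 13.15 in sham, 12.38, 12.46, 11.56, 11.75 and 12.50 at day 3 and 12.24, 12.33, 12.39 and 12.29 at day 7. At day 1 it read 12.96, 12.72, 12.87, 12.77 and 13.07 in WT and 12.95, 13.02, 12.99 and 13.11 in KO. No injured array reached the sham range of its genotype, and the falls were -0.86 at day 3 and -1.09 at day 7 in WT (SE 0.14 for both, adjusted p 5.92e-06 and 2.14e-07 in limma). In KO they were -1.08 and -0.90 (SE 0.13 and 0.14, adjusted p 5.09e-08 and 5.84e-06).

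Kif5b fell less. It read 13.42, 13.42, 13.08 and 13.15 in sham WT, 12.99, 12.88, 13.04 and 12.99 at day 3 and 12.80, 13.05, 12.80 and 12.76 at day 7. In KO it read 13.47, 13.26, 13.80 and 13.38 in sham, 13.06, 12.93, 12.91, 12.85 and 13.22 at day 3 and 13.06, 13.05, 13.11 and 13.03 at day 7. The day 3 and day 7 arrays stood below all sham arrays in each genotype, and the differences lay between -0.48 and -0.29 with adjusted p from 9.8e-05 to 0.0174 in limma. At day 1 it read 13.19, 13.39, 13.26, 13.48 and 13.27 in WT and 13.31, 13.22, 13.31 and 13.60 in KO, overlapping with sham, and was not called (0.06 and -0.12). Of its 5 other probe sets, 3 were called higher at day 1 in WT (0.21, 0.17 and 0.33) and 1 in KO (0.16). Kif5c fell by 0.59 at day 3 in WT and 0.85 in KO, and stayed 0.55 and 0.59 below sham at day 7.

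Kif1a and Kif1b carry synaptic vesicle precursors, and Kif1b also mitochondria. Kif1a read 6.86, 7.24, 7.15 and 7.06 in sham WT, 6.69, 6.53, 6.73, 6.54 and 6.78 at day 1, 6.16, 6.11, 6.34 and 6.21 at day 3 and 6.13, 5.99, 6.22 and 6.23 at day 7. The KO arrays read 6.97, 7.34, 7.27 and 7.24 in sham, 6.59, 6.98, 6.84 and 6.46 at day 1, 5.66, 6.33, 6.02, 5.67 and 6.23 at day 3 and 6.26, 6.30, 6.23 and 6.36 at day 7. The fall was in place at day 1 (-0.42 and -0.48) and was larger at day 3 (-0.87 and -1.22), and sham overlapped with an injured group only at day 1 in KO. A second, dimmer Kif1a probe set fell by 0.34 at day 3 in KO (called), read -0.33 in WT (not called) and gave 0.05 at day 1 in both genotypes.

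Kif1b read 13.23, 13.24, 13.19 and 13.25 in sham WT, 12.81, 12.78, 12.93, 12.86 and 13.04 at day 1, 12.68, 12.58, 12.68 and 12.77 at day 3 and 12.73, 12.82, 12.65 and 12.80 at day 7. In KO it read 13.26, 13.32, 13.18 and 13.25 in sham, 12.86, 12.93, 13.02 and 12.95 at day 1, 12.53, 12.75, 12.09, 12.18 and 12.68 at day 3 and 12.73, 12.69, 12.75 and 12.71 at day 7. All injured arrays lay below all sham arrays, with a fall of 0.55 at day 3 in WT and 0.81 in KO (adjusted p 1.63e-05 and 1.3e-08 in limma). Its 7 probe sets did not move alike. At day 1 in WT 3 were called lower and 1 higher, and the mean of the 7 gave 0.06. At day 3 in KO 4 were called lower and 3 higher, the latter by 0.56 to 0.96, so the fall describes the transcripts that the brightest probe sets read.

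Kif3a, Kif3b and Kif3c belong to kinesin-2, which moves cargo in axons and, as Kif3a with Kif3b, inside cilia. Kif3c read 10.44, 10.51, 10.26 and 10.43 in sham WT and 9.46, 9.15, 9.37 and 9.46 at day 3, and 10.31, 10.42, 10.47 and 10.42 in sham KO and 9.26, 9.72, 8.53, 8.66 and 9.71 at day 3. Kif3a read 10.31, 10.35, 10.39 and 10.27 in sham WT and 9.52, 8.86, 9.45 and 9.61 at day 3, and 10.24, 10.34, 10.19 and 10.15 in sham KO and 9.29, 9.48, 9.06, 9.14 and 9.65 at day 3. Sham and day 3 arrays did not overlap for either gene, and the differences were -1.06 and -1.23 for Kif3c and -0.97 and -0.91 for Kif3a in WT and KO (adjusted p 6.3e-06, 1.81e-07, 3.7e-07 and 2.97e-07 in limma). At day 1 Kif3c read 9.68, 9.85, 10.01, 9.67 and 9.91 in WT and 9.86, 10.15, 10.16 and 9.92 in KO, and at day 7 9.65, 9.82, 9.65 and 9.53 in WT and 9.78, 9.63, 9.60 and 9.73 in KO. Kif3a at day 1 read 9.69, 9.69, 9.89, 9.49 and 9.77 in WT and 9.53, 9.79, 10.06 and 9.79 in KO, and at day 7 9.55, 9.83, 9.65 and 9.51 in WT and 9.67, 9.70, 9.59 and 9.62 in KO. These arrays too lay below all sham arrays of their genotype, although the day 1 fall of Kif3c was not called in KO (-0.38, adjusted p 0.0682 in limma). Kif3a fell in all 6 injury groups and its 4 probe sets were all called lower at day 3. Kif3b was the transport member that was called in no injury group, with differences from -0.15 to 0.03. Kifap3, the partner protein of kinesin-2, fell by 0.82 at day 3 in WT and 0.87 in KO.

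Kif21a and Kif21b, motors that also restrain microtubule growth in neurons, fell by 0.79 and 0.57 at day 3 in WT and by 0.81 and 0.49 in KO. Kif21a was still 0.62 and 0.59 lower at day 7, while Kif21b was not called there, at -0.07 in WT and -0.22 in KO. Kif17, a dendritic motor for receptor vesicles, failed the filter and averaged between 2.71 and 3.18 in the 8 groups. At day 1, 7 of the 10 transport kinesins were called lower in WT (31.8% of all genes) and 5 in KO (26.3%). With the mean of each gene's probe sets these counts were 4 and 3, and the 7 in WT became 1 with the 2 arrays of conflicting label grouped by source and time. At day 7, 8 were called lower in WT (32.6%) and 8 in KO (30.1%). Between day 1 and day 3, 7 were called lower in WT (16.1% of all genes) and 8 in KO (30.2%). Between day 3 and day 7, 1 was called higher in WT (10.2% of all genes) and 3 in KO (18.3%).

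**Figure D3:**
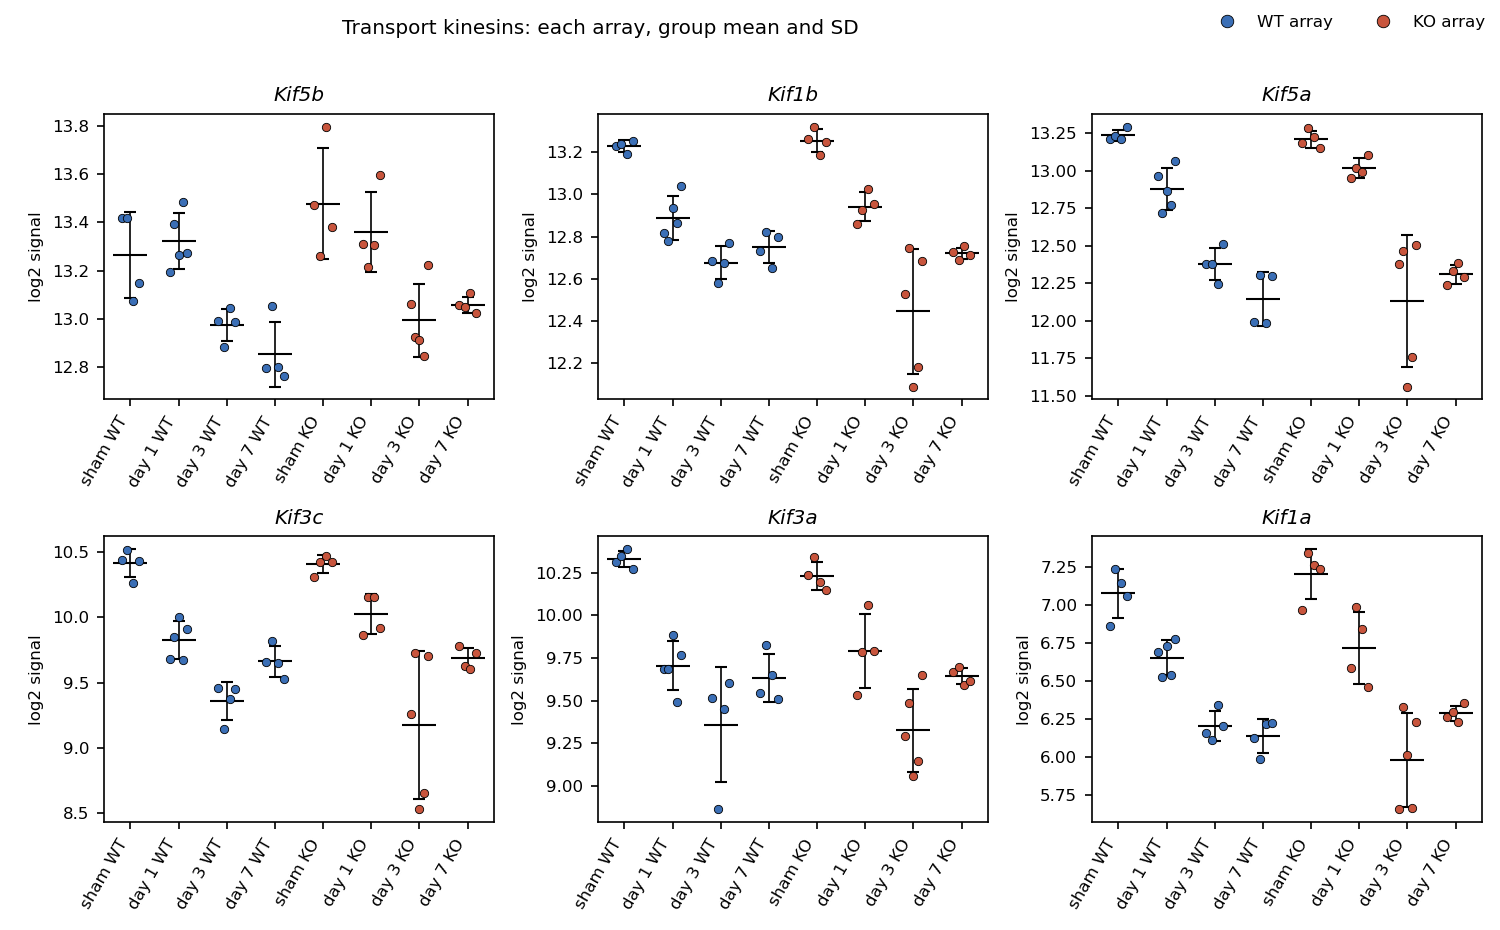
Log2 signal of 6 transport kinesins in each array, by group (x axis), with WT arrays in blue and KO arrays in red, and with horizontal bars and whiskers for the group mean and SD. All 6 were lower at day 3 and day 7 than in sham, and day 3 KO replicates 3 and 4 were the lowest arrays for Kif1b, Kif5a and Kif3c, at 11.56 and 11.75 for Kif5a against 12.38 to 12.50 in the other 3 arrays.

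The rest of the transport machinery, from lists written with earlier results of these data known, changed in part. Of 13 tested cargo adaptors of axonal kinesins, 11 were called lower at day 3 in WT and 13 in KO, with medians of -0.68 and -0.87, where 37.0% and 38.4% of all genes were called lower. Sybu, the syntaxin adaptor syntabulin, fell by 1.23 and 1.35, and Rhot2, a mitochondrial adaptor, by 0.92 and 0.89. Of the 4 tested light chains and kinesin-2 partner, 2 were called lower in each genotype (medians -0.39 and -0.40), Kifap3 and Klc1, the neuronal light chain, which fell by 0.71 and 0.86. Dynactin, the activator of dynein, had 4 of 7 tested subunits lower in WT and 5 in KO (medians -0.17 and -0.26). Cytoplasmic dynein, which moves cargo back to the cell body, had 7 of 10 tested subunits lower and 1 higher at day 3 in WT and 8 lower and 1 higher in KO. Dync1i1, the neuronal intermediate chain, fell by 1.13 and 1.48, while Dync1i2, the widely made one, read -0.10 and -0.03 and was not called. Dynll1 was the subunit that rose, by 0.47 and 0.44.

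Neuron markers fell by similar amounts on the same days. All 12 were called lower at day 3 in WT (37.0% of all genes) and in KO (38.4%). Their medians were -0.74 and -0.95, beside -0.69 and -0.83 for the transport kinesins. At day 7, 12 in WT (32.6% of all genes) and 11 in KO (30.1%) were called lower (medians -0.60 and -0.63). The mean over the 12 markers was 12.34 to 12.42 in sham WT arrays, 11.31 to 11.72 at day 3, 12.32 to 12.47 in sham KO arrays and 10.81 to 11.79 at day 3. The 2 day 3 KO arrays with the lowest neuron marker mean, replicates 3 and 4 at 10.81 and 10.91, also had the lowest mean over the transport kinesins, 9.34 and 9.44 against 9.70 to 9.92, and the highest mean over the spindle kinesins, 7.39 and 7.50 against 6.68 to 6.94. Without either of them 9 of 10 transport and 8 of 8 spindle kinesins were still called at day 3 in KO. Skeletal muscle markers averaged 14.03 in replicate 3 but 4.96 in replicate 4. Oligodendrocyte markers were lower too, 5 of 5 at day 3 in each genotype (medians -0.37 and -0.46). The difference between 3′ and 5′ actin control probe sets averaged 1.97 in sham WT, 1.49 at day 3 WT, 2.08 in sham KO and 1.50 at day 3 KO. Gapdh controls changed in the opposite direction. Their mean 3′ to 5′ difference was 0.07 in sham WT, 0.21 at day 3 WT, 0.10 in sham KO and 0.28 at day 3 KO. The part of the neuron markers and of RNA quality in the fall of the transport kinesins was not tested.

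**Figure D4:**
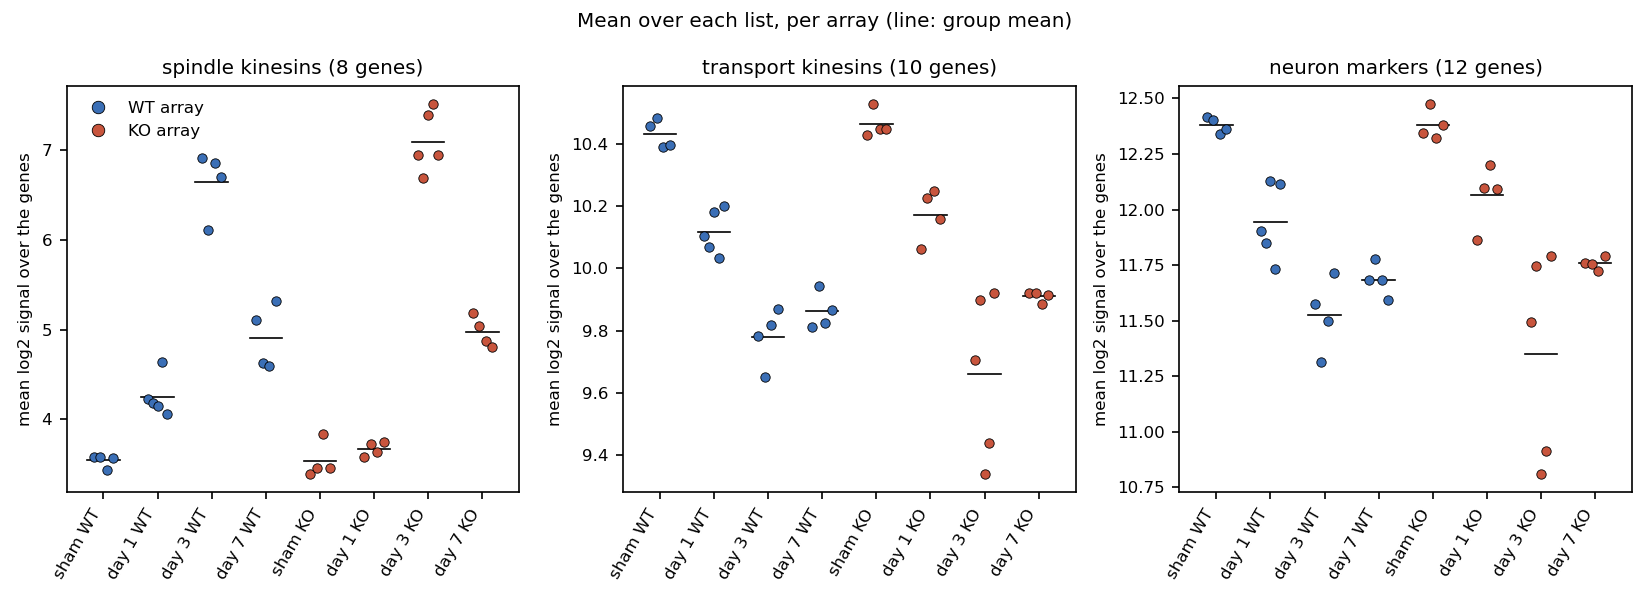
Mean log2 signal per array over the 8 spindle kinesins, the 10 transport kinesins and the 12 neuron markers that passed the filter, by group, with WT arrays in blue, KO arrays in red and a line at the group mean. The spindle mean was 4.06 to 4.64 in day 1 WT arrays and 3.58 to 3.75 in day 1 KO arrays, and the transport and neuron means were lowest in the same 2 day 3 KO arrays.

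At day 1 the spindle kinesins were compared with sham within each genotype and then between genotypes, and a call in 1 genotype alone is no test of a difference between them. In WT 5 of 8 were called higher than sham (26.6% of all genes), namely Kif23, Kif20b, Kif22, Kif18a and Kif20a. In KO 1 was called higher (23.1% of all genes), Kif22, and Kif11 was called lower. Both counts only describe the genes that passed, since signal in the injured arrays let most of them pass. The KO count was 0 when Kif22 was read by its probe set without an x or s suffix. The WT count was 3 without sham WT replicate 3, sham WT replicate 4 or day 1 WT replicate 4, and 3 without the 3 arrays of doubtful label, where Kif18a and Kif20a were no longer called. The KO count was 2 without sham KO replicate 3, with Kif2c added. The mean over the 8 spindle kinesins was 3.44 to 3.58 in sham WT arrays and 4.06 to 4.64 at day 1 WT, while the KO arrays read 3.40 to 3.84 in sham and 3.58 to 3.75 at day 1.

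Compared directly at day 1, 2 spindle kinesins were called lower in KO than in WT, where 0.559% of all genes were called lower. Kif23 read 2.67, 3.43, 3.65, 3.93 and 3.43 in day 1 WT arrays and 2.43, 2.27, 2.29 and 2.17 in day 1 KO arrays. The KO arrays stayed near the floor and none overlapped with WT. The difference of -1.13 (95% interval -1.62 to -0.65, adjusted p 0.0154 in limma) is therefore a lower bound in size. Kif20b read 4.40, 3.54, 3.82, 4.18 and 3.15 in WT and 2.66, 2.78, 3.21 and 2.58 in KO. The lowest WT array of Kif20b lay below the highest KO array, and the difference was -1.01 (95% interval -1.48 to -0.53, adjusted p 0.0363 in limma), again from a KO group near the floor. A second, dimmer Kif20b probe set gave -0.01, and it had not changed at day 1 in either genotype (0.01 and 0.00).

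Both calls were lost without day 1 WT replicate 4 or without day 1 KO replicate 4, where no spindle kinesin was called. Without the 3 arrays of doubtful label Kif23 alone was called. Over all alternatives tried the difference of Kif23 ran from -1.38 to -1.01 with adjusted p from 0.00249 to 0.341, and that of Kif20b from -1.17 to -0.51 with adjusted p from 0.00769 to 0.472 (limma in each case).

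Kif11 read 4.68, 4.73, 4.39, 5.83 and 4.35 in day 1 WT and 3.65, 3.43, 3.54 and 4.26 in day 1 KO. The groups did not overlap, yet the difference of -1.08 (95% interval -1.77 to -0.39) had an adjusted p of 0.188 in limma and was not called. In KO it was 0.86 lower at day 1 than in sham (adjusted p 0.048 in limma), a call lost without sham KO replicate 3, which read 5.41, at -0.59 (adjusted p 0.201), and in 10 other alternatives. Kif18a read 3.39, 3.41, 3.43, 3.76 and 3.41 in WT and 2.41, 2.89, 2.68 and 3.36 in KO, also without overlap, with a difference of -0.64 (adjusted p 0.134 in limma). Kif20a read 3.06, 2.87, 2.77, 3.34 and 2.34 in WT and 2.18, 2.32, 2.34 and 2.77 in KO, which overlapped. Kif2c, Kif4 and Kif22 differed by -0.27, -0.09 and 0.08 and were not called.

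The other kinesins showed no called difference between genotypes at day 1. The 10 transport kinesins differed by -0.12 to 0.20, and their 95% intervals, unadjusted for the number of genes, lay within -0.29 to 0.53. Of the 28 members, 5 had an unadjusted p under 0.05 in limma, all spindle kinesins. Of the 18 spindle and midzone partners, 9 were called lower in KO at day 1 (0.559% of all genes), with a median of -0.80. Among them were Prc1 at -1.39 and Ect2 at -1.48, and Cenpe was called at -0.72. The partner list was written with earlier results of these data known, so its count only describes its genes. No macrophage or neuron marker was called between genotypes at day 1 (medians -0.34 and 0.07). The macrophage mean was 8.65 to 9.20 in WT arrays and 8.37 to 8.93 in KO arrays, and its part in the difference was not tested.

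**Figure D5:**
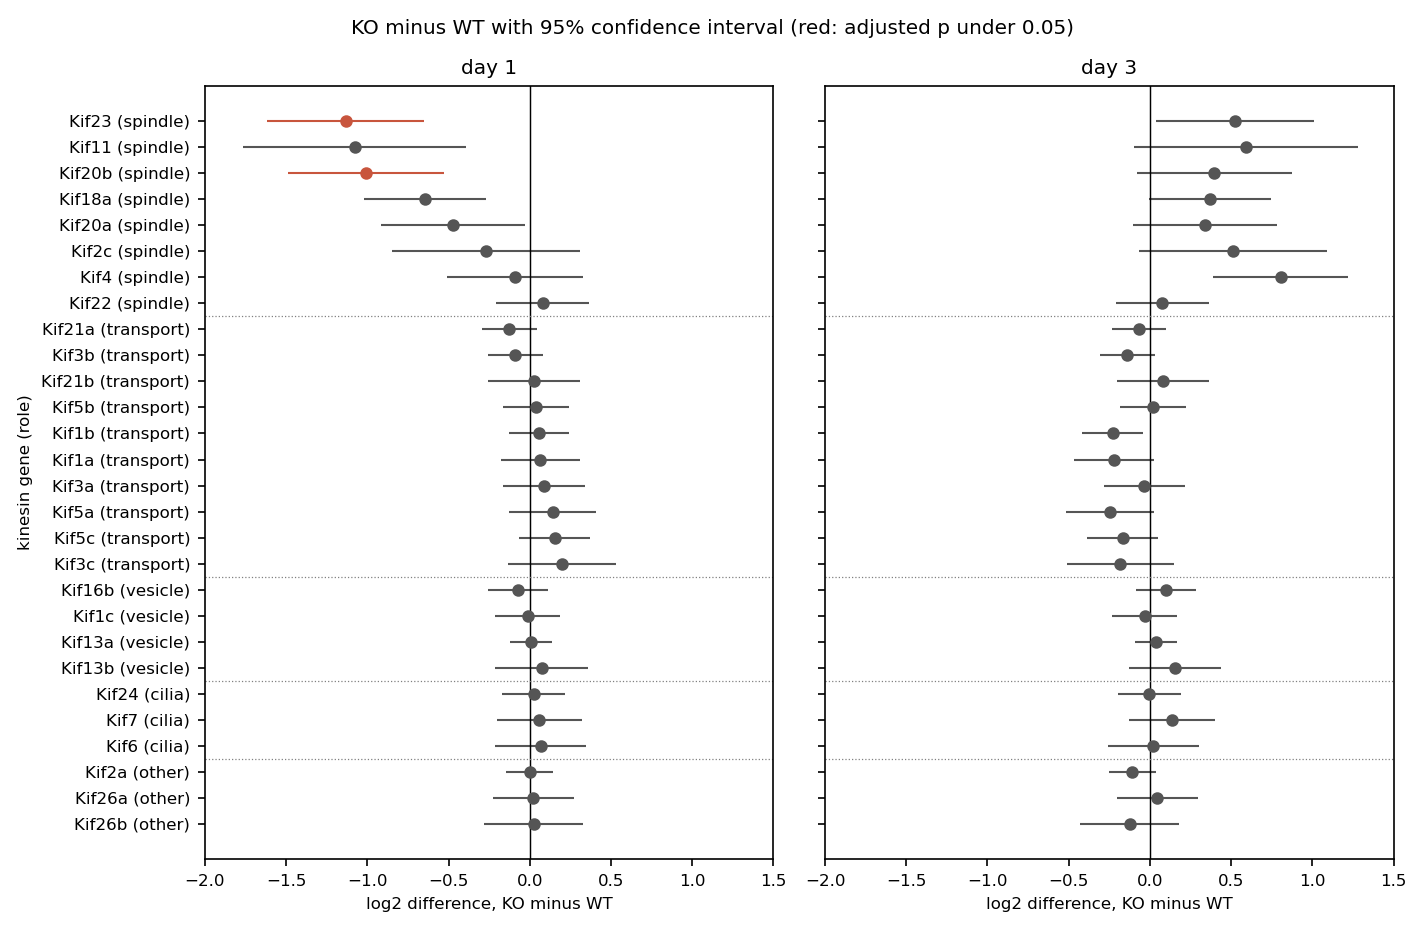
KO minus WT difference in log2 signal with its 95% confidence interval for the 28 kinesins at day 1 (left) and day 3 (right), grouped by role, with red points for an adjusted p under 0.05 in limma. Kif23 at -1.13 and Kif20b at -1.01 are the called genes at day 1, no gene is called at day 3, and the transport kinesins lie between -0.12 and 0.20 at day 1 and between -0.25 and 0.08 at day 3.

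At day 3 no member was called between genotypes. All 8 spindle kinesins had a higher mean in KO than in WT, by 0.08 to 0.80. The median of all genes was -0.002, and 0.0334% of all genes were called in either direction. That shared direction only describes the 8, because Kif4, Kif18a and Kif20a passed the filter through the day 3 arrays. Of the 28 members, 3 had an unadjusted p under 0.05 in limma at day 3, and the largest difference was that of Kif4, 0.80 with an adjusted p of 0.221. The change from day 1 to day 3 was larger in KO than in WT by 1.66 for Kif23 (SE 0.34, adjusted p 0.0168 in limma) and by 1.40 for Kif20b (SE 0.33, adjusted p 0.0475), the 2 members called in that test, where 0.55% of all genes were called higher. Macrophage and microglia markers had a median of 0.95 (0.25 to 1.41) in the same test, none of 8 called, and of 0.57 for KO minus WT at day 3, and their part in the difference was not tested. The rises of Kif23 and Kif20b from day 1 to day 3 were 3.09 and 2.69 in WT and at least 4.75 and 4.10 in KO. For the remaining spindle kinesins the difference ran from 0.00 for Kif22 to 1.67 for Kif11 (adjusted p 0.121). No member was called in this test without day 3 WT replicate 2, and 4 were called without day 3 KO replicate 2. Without the 3 arrays of doubtful label, or without day 3 WT replicate 4, day 3 KO replicate 1, 3 or 4, or any 1 of the 9 day 1 arrays, 1 member was called.

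The sham groups and day 7 did not differ by call. No member was called between genotypes in sham (0.0667% of all genes) or at day 7 (0.0334%), and 2 members each had an unadjusted p under 0.05 in limma. The difference between genotypes in the change from sham was called for no member at day 1 (0.108% of all genes), day 3 (0.0%) or day 7 (0.00834%), with 4, 3 and 1 members at an unadjusted p under 0.05. For Kif23 the change from sham to day 1 differed by -1.19 (adjusted p 0.402 in limma), so that a genotype difference in the response from sham was not called for it. For the transport kinesins that difference lay between -0.18 and 0.20 at day 1, -0.35 and 0.07 at day 3 and -0.15 and 0.19 at day 7.

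The kinesins of the remaining roles moved little or singly. Kif26b, an atypical kinesin, fell in all 6 injury groups, by 0.90 to 0.92 in WT and 1.10 to 1.27 in KO, and no injured array group overlapped with sham. Kif6, a motor of motile cilia, averaged 4.67 ± 0.07 (SD, n = 4) in sham WT and 3.87 to 3.89 in the 3 injured WT groups, falls of 0.80, 0.79 and 0.78. In KO it started at 4.17 ± 0.10 (SD, n = 4) and averaged 3.91 to 4.04, with no call, and the 2 sham groups did not overlap. Neither that sham difference (-0.51, adjusted p 0.553 in limma) nor the difference in response at day 1 (0.57, adjusted p 0.576) was called. Of 3 tested ependymal cilia markers 2 fell at day 1 in each genotype, where 31.8% of all genes in WT and 26.3% in KO were called lower.

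Kif1c, a vesicle motor of many cell types, rose at day 3 in both genotypes, by 0.54 in WT and 0.44 in KO. Kif13b, a vesicle motor, fell by 0.48 and 0.50 at day 1 and by 0.46 and 0.39 at day 3. Kif16b, an endosome motor, fell at day 1 alone, by 0.24 and 0.44. Kif2a, which trims microtubules in neurons and in the spindle, fell by 0.35 and 0.45 at day 3, the direction of the transport group. Kif13a rose by 0.21 at day 1 and 0.17 at day 3 in WT, Kif26a by 0.40 at day 7 in WT, and Kif7, a Hedgehog regulator at the cilium tip, fell by 0.40 at day 1 in WT and rose by 0.38 at day 7 in KO. Kif24 was called in no injury group. Kif9, Kif27, Kif12 and Kif28 failed the filter and averaged at most 2.23 in every group.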

How the data were processed

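Expression was measured in 34 mouse arrays in 8 groups of 3 injury times and sham by 2 genotypes. The authors deposited log2 values, computed with GCRMA per the submitters' processing notes. The version of GCRMA is not given in these sources. The values were used without further scaling. Probe sets were named from the platform annotation, and 99 probe sets named a Kif gene alone. Of 45101 probe sets, 64 controls were left out and 24573 passed the filter (log2 at least 4 in at least 4 arrays). GCRMA corrects background by probe sequence, which leaves many low signals at one floor value, so differences from a group near it are understated.

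Groups were taken from the titles. A model of 8 group means was fitted with limma 3.58.1 in R 4.3.3 over all probe sets (26 residual degrees of freedom and 2.62 from the prior), with contrasts for injury, time, genotype and their interaction, and Benjamini-Hochberg adjustment over all probe sets tested. p-values measure the spread between arrays. Shares over all genes used 1 probe set for each of 11990 genes. On simulated data with 200 changed probe sets, 87% of changes of 1 log2 unit were recovered for KO minus WT at day 1 and 87.5% for WT day 3 minus sham, among 24573 probe sets, and 9.38% and 3.31% of the calls were false. The noise was independent and normal and the changed probe sets were drawn at random, so these shares need not hold for the kinesins near the floor. In the data 6406 probe sets were called higher and 8781 lower for WT day 3 minus sham.

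The kinesins, their roles and all gene lists were chosen with earlier results of these data known. Members given array by array were the 4 spindle genes with the largest KO minus WT difference at day 1, the 3 with the largest rise at day 3 in WT, and the 3 transport genes with the highest mean and the 3 with the largest change at day 3 in WT. Alternatives were each array left out, the 2 arrays of conflicting label regrouped or left out, another prior, array weights, other filters, quantile or median scaling, other probe set choices, the replicate number as a block, and fits to the arrays compared alone. Leaving out 3 arrays of doubtful label together was added after seeing the data. Promoter sequences are from RefSeq (GRCm38.p6). Tables were made with Python 3.11.15 and pandas 2.3.3.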

Additional observations from a re-analysis of the deposited data

Results flagged for a closer look

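Of 96 groups of values (12 kinesins in 8 groups), 8 held an array that stood far from the rest of its group. Chance alone flags about 1 in 20 groups, a rate that need not hold for tied values or for genes read on the same arrays. For Kif11, day 1 WT replicate 4 read 5.83 against 4.35 to 4.73 in the other arrays, and sham KO replicate 3 read 5.41 against 4.26 to 4.33. Sham KO replicate 3 was also high for Kif2c, at 3.61 against 2.49 in each other array, and for Kif20b, at 2.96 against 2.62 to 2.66. Both of these groups were near the floor. Day 1 WT replicate 4 was high for Kif18a too, at 3.76 against 3.39 to 3.43. Kif23 read 2.43 in sham KO replicate 4 against 2.21 to 2.22, and Kif20a read 2.46 in sham WT replicate 4 against 2.32 to 2.34, both near the floor. Kif5b read 13.05 in day 7 WT replicate 2 against 12.76 to 12.80. The change from day 1 to day 3 differed between genotypes for Kif23, by 1.66, and for Kif20b, by 1.40, in the limma test of that difference.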

How the results depend on the processing

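The counts of spindle kinesins higher at day 3 and day 7 and of transport kinesins lower at day 3 and day 7 stayed within 1.5 times under every alternative run. Of 173 calls of single members, 119 were kept under every alternative, 53 were lost under at least 1 and 3 were reversed under at least 1 (Kif1b at day 1 in WT and from day 3 to day 7 in KO with the mean of its probe sets, Kif22 at day 1 in KO with the probe set without suffix). The main fit took the arrays as unpaired. Correlations of deviations from group means in 113 pairs of arrays with the same replicate number ran from -0.454 to 0.43, with 21 over 0.1. Pairs with different numbers were not compared, so whether the replicate numbers pair the arrays was not tested.

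The 5 spindle kinesins higher at day 1 in WT became 3 with the 2 conflicting arrays grouped by source and time, 3 without the 3 doubtful arrays and 3 with no filter, and 3 to 5 without 1 array. The 1 in KO became 2 with array weights and 0 with probe sets without suffix, and 1 to 2 without 1 array. The 7 transport kinesins lower at day 1 in WT became 1 when grouped by source and time and 4 with the mean of probe sets, and the 5 in KO became 3 with that mean. The 2 spindle kinesins lower in KO than in WT at day 1 became 0 when grouped by source and time, 0 with only the arrays compared, and 1 without the conflicting arrays, without the 3 doubtful arrays, with no filter or with the mean of probe sets, and 0 to 2 without 1 array. The 2 with a larger change from day 1 to day 3 in KO became 0 when grouped by source and time, with array weights or with only the arrays compared, 1 without the conflicting or doubtful arrays, with no filter or with quantile scaling, 4 with the replicate block, and 0 to 4 without 1 array. The cause was not tested. Near the floor, GCRMA values limit what can be measured for the spindle kinesins in sham and at day 1.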
